A study of Mus musculus with 24 samples.

Results

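Collagen mRNA was examined in whole hearts of mice carrying a cardiomyocyte-specific deletion of Sirt5 (cSirt5-/-) and of control mice, following Sham surgery or transverse aortic constriction (TAC), which narrows the aorta and loads the left ventricle with pressure. Members were all rows of the normalized count table whose gene symbol reads Col, digits, a, digits, that is, the genes that encode the alpha chains of collagens. The rule found 42 genes among the 24239 in the table. Each of the groups control Sham, control TAC, cSirt5-/- Sham and cSirt5-/- TAC held 6 hearts from separate male mice, taken 12 weeks after surgery. The cSirt5-/- mice came from transgenic Sirt5 mice on a C57BL6J background, which the study's methods call knockout mice and its discussion calls floxed. These were crossed with hemizygous Myh6-cre mice, in which the recombinase is made in cardiomyocytes. Controls were such transgenic mice without the recombinase. An effect of Cre and an effect of the deletion therefore cannot be told apart, the other cells of the heart were not targeted, and the age of the mice is not given in the sources used here.

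Collagens are secreted or membrane proteins in which 3 alpha chains wind into a triple helix. A chain can do so because glycine, the smallest amino acid, stands at the start of nearly every triplet of its helical part. Fibrillar collagens such as types I, III and V form the tensile fibres of the interstitium, and type IV collagens form the sheet-like network of basement membranes around cardiomyocytes and capillaries. Type VI forms beaded filaments, fibril-associated collagens decorate the surface of fibres, and short-chain type VIII forms hexagonal lattices. In the heart, fibroblasts make most of the fibrillar chains, and the matrix expands in many hearts under pressure overload.

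The triplet rule is visible in the genes themselves, and a 54-base coding exon is shown for 4 fibrillar chains and for the main type IV chain because these genes carry the results below. Each is the first exon of that length, after the sixth coding exon, that begins with a glycine codon and holds one at every triplet. Glycine codons are in capitals, and every other codon is in lower case. The sequences were read 5′ to 3′ on the coding strand of GRCm39 with GENCODE M39 models.
Col1a1, coding exon 8 (chr11:94830730-94830783, plus strand): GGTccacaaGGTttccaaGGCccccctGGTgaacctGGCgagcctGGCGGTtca
Col1a2, coding exon 8 (chr6:4515481-4515534, plus strand): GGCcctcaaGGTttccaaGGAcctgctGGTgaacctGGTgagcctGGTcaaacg
Col3a1, coding exon 7 (chr1:45364965-45365018, plus strand): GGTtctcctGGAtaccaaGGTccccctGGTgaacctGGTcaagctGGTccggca
Col5a2, coding exon 10 (chr1:45461546-45461599, minus strand): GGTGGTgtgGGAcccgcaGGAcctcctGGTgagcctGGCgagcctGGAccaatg
Col4a1, coding exon 7 (chr8:11295211-11295264, minus strand): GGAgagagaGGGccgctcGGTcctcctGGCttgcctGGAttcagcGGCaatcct

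These exons hold 6 glycine codons each, except those of Col1a1 and Col5a2, which hold 7. In Col1a1, 43 of the 49 internal coding exons are a multiple of 9 bases long, and 43 of 49 are in Col3a1. In Col4a1 the count is 20 of 50, and Col8a1 and Col8a2 have no internal coding exon at all.

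The 150 bases upstream of Col1a1, the type I chain gene, and of Col8a1, the type VIII chain gene with the smallest adjusted p following TAC, are shown with the motifs CCAAT and GGGCGG, searched on both strands, in capitals.
Col1a1 (chr11:94826900-94827049, plus strand): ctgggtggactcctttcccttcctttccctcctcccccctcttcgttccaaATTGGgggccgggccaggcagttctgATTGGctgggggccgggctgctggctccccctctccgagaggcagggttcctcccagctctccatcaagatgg
Col8a1 (chr16:57575101-57575250, minus strand): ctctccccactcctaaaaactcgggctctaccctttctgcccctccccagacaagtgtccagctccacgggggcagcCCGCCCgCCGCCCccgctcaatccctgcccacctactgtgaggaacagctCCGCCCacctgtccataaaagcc

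The Col1a1 window holds CCAAT on the opposite strand at 2 places, and the Col8a1 window holds GGGCGG on the opposite strand only. Among members, 10 of 42 windows (23.8%) hold CCAAT, against 27.7% of 21770 protein-coding genes, and 19 of 42 (45.2%) hold GGGCGG, against 32.6%. These are matches of letters, and binding at them was not measured.

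The libraries held 22.5 to 35.8 M reads, as recovered from the table, and values are normalized counts, that is, reads per gene divided by a size factor for the library. None of 10 cardiomyocyte, 10 fibroblast or 10 endothelial markers was at 0 in every heart of a group. Sirt5 was 388 to 807 in the 12 control hearts, whereas the libraries labelled cSirt5-/- TAC 2 and 4 held 886 and 499, cSirt5-/- Sham 3 held 259, and the other 9 held 85.6 to 139. Ribosomal and 7SK RNA took 23.4% of reads in control TAC 2. The libraries also fell into 2 sets by the share of antisense reads, a split the labels do not name, with 10 libraries in set 1 and 14 in set 2. Set 1 held 2 of 6 hearts in each group except cSirt5-/- Sham, where it held 4. The animal numbers fall into low, middle and high series that are also spread unevenly, so that after Sham the genotypes share the middle series alone, with 2 hearts each. A set holds few hearts of a group, so that a call can be lost within it through the smaller number alone. In set 1, the control TAC hearts are all of the high series, and the control Sham and cSirt5-/- TAC hearts all of the middle series. In set 2, the control Sham hearts are all low, the cSirt5-/- Sham hearts all high, and the cSirt5-/- TAC hearts low or middle. Where 2 such groups share no series within a set, their difference and that of the series cannot be told apart. Values within sets and with the series as a term in the fit stand beside the members whose call is lost there.

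Members differed widely in level. Per kilobase of transcript, averaged over the 24 hearts, the highest were Col4a1 at 2985 and Col3a1 at 2682 normalized counts, followed by Col4a2 at 2256, Col1a2 at 1737 and Col1a1 at 1394. Together these 5 chains of types I, III and IV stand above all other members, and Col6a1 followed at 917 and Col15a1 at 765. Of the 42 members, 23 had a mean of at least 100 normalized counts, 13 a mean from 10 to 100, and 6, among them the cartilage chain Col2a1 and the epithelial chain Col17a1, a mean under 10. Collagen took 0.216 to 0.452% of the signal of nuclear genes other than ribosomal and 7SK RNA in control Sham hearts and 0.308 to 1.09% in control TAC hearts. In cSirt5-/- hearts it took 0.241 to 0.476% following Sham and 0.450 to 0.785% following TAC.

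Differentially expressed genes (DEGs) were those with a limma adjusted p under 0.1 over all 24239 genes and a change of more than 1.5-fold. In control hearts, 17 of the 42 members were DEGs following TAC, of which 16 rose and only Col6a6 fell. Over all genes, 7.03% were DEGs in that comparison, 3.78% higher and 3.26% lower. The median log2 fold change of the 42 members, which needs no filter on level, was 0.60. Over the 23 members with a mean of at least 100 it was 0.77, against 0.00 over the 10934 genes of that level. That mean includes the TAC hearts, so a rise following TAC can itself bring a gene over the limit. Col8a2 passed with control means of 61.7 after Sham and 217 after TAC, whereas Col11a2, at 98.5 and 69.6, did not. The 10934 genes were filtered in the same way. Of 8 markers of activated fibroblasts, 7 rose in the same comparison, and their summed level was 2158 to 16972 in control Sham and 7816 to 76190.4 in control TAC hearts. Their part in the collagen values was not tested. In bulk tissue, more cells of a type and more RNA per cell cannot be told apart. Control TAC 5 held the highest value of its group for 22 of those 23 members and control TAC 2, the library rich in ribosomal RNA, the lowest for 18. Without control TAC 5 the count was 12 and 1267 of all genes were DEGs, against 1705 over all 24 libraries. Without control Sham 2 it was also 12 (1469 of all genes), and without control TAC 2 it was 19 (1956 of all genes). Within set 1 alone, 6 members were DEGs (5.07% of all genes), within set 2 alone 7 (5.5%), and with the animal-number series in the fit 11 (5.34%). Those of set 1 include Col18a1 and Col11a2, which were no DEGs over all 24 libraries, and Col11a2 was lower there. On the recovered reads, edgeR called 21 members here (7.14% of all genes), 3 for TAC in cSirt5-/- hearts (0.602%), 0 between genotypes following Sham (2.1%) and 3 following TAC (3.4%).

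**Figure D1:**
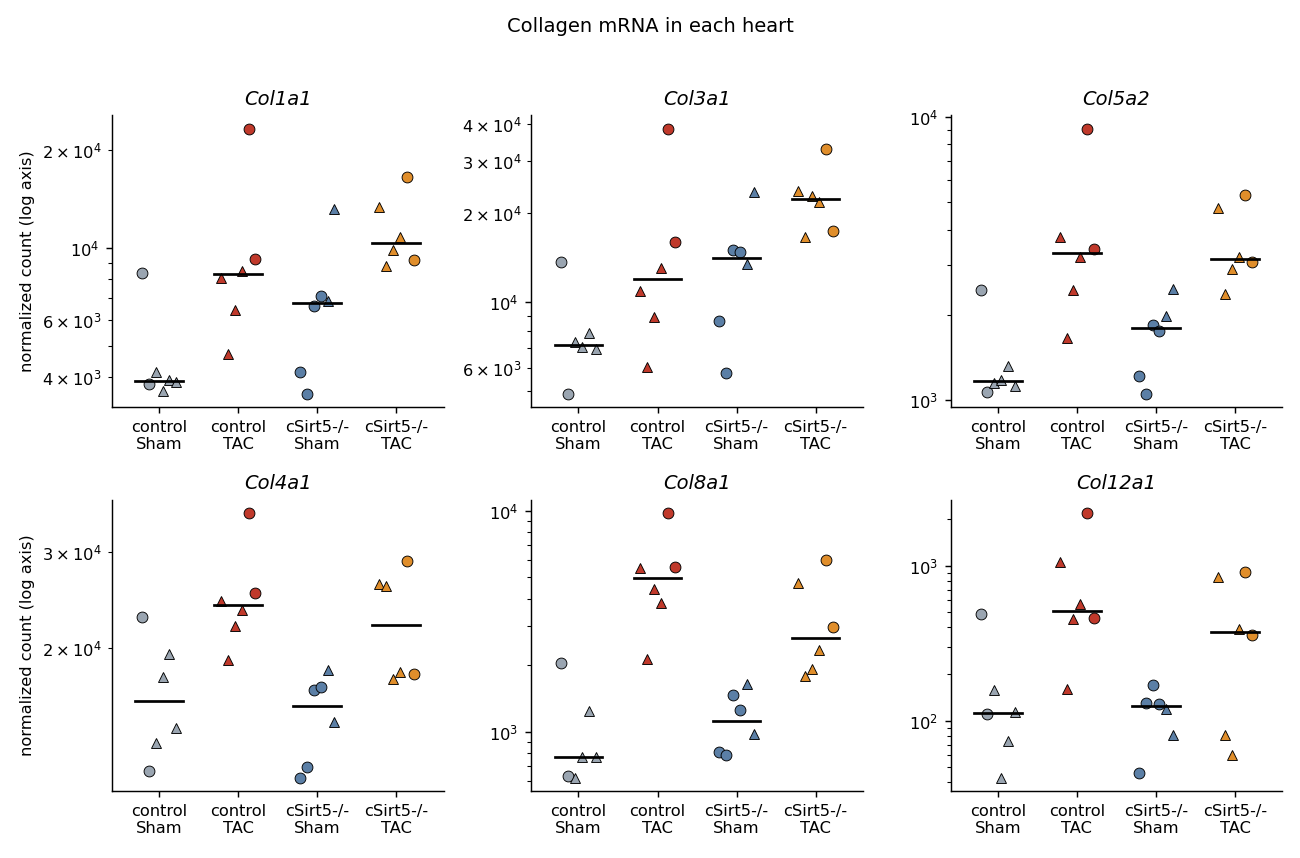
Normalized counts of 6 collagen genes in each of the 24 hearts, on log axes, by group. Circles are hearts of library set 1, triangles hearts of set 2, and bars the group medians. The 6 control TAC hearts lie above every control Sham heart for Col8a1 (2143 or more against 2049 or less), whereas the groups overlap for the other 5 genes.

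Fibrillar collagens rose in control hearts following TAC for 4 of 11 members, namely both chains of type I and 2 chains of type V, and none fell. The median log2 fold change of the class was 0.77. Col1a1, which encodes the alpha 1 chain of type I, the main load-bearing collagen, lies on chromosome 11 from 94827050 to 94843868 on the plus strand (ENSMUSG00000001506). Its normalized count was 3629.7 to 8359 (median 3897) in control Sham and 4706 to 23352 (median 8297) in control TAC hearts. All 6 control TAC hearts were above 5 of the Sham hearts, but control Sham 1, at 8359, was above 3 of them. The log2 fold change was 0.99 (standard error 0.29, limma adjusted p = 0.0272), or 1.99-fold (95% confidence interval 1.31 to 3.01). Within sets it was 1.38 in set 1, where it was no DEG, and 0.80 in set 2.

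Col1a2, the partner chain of type I on chromosome 6 from 4504814 to 4541544 on the plus strand (ENSMUSG00000029661), was 4113 to 9050.2 (median 4817) in control Sham and 6009 to 25309.7 (median 9823) in control TAC hearts. Its log2 fold change was 0.95 (standard error 0.27, limma adjusted p = 0.0198). It was 1.40 in set 1, where it was no DEG, and 0.72 in set 2. The ratio of Col1a1 to Col1a2 per kilobase was 0.708 to 0.836 in control Sham and 0.708 to 0.848 in control TAC hearts.

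Col5a2 encodes a chain of type V, which nucleates type I fibres and sits in their core, and it had the largest log2 fold change among the fibrillar DEGs. It lies on chromosome 1 from 45413481 to 45542442 on the minus strand (ENSMUSG00000026042), next to Col3a1 on chromosome 1 from 45350698 to 45388866 on the plus strand (ENSMUSG00000026043). Its level was 1067 to 2450.0 (median 1167) in control Sham and 1655 to 9100.2 (median 3312) in control TAC hearts. Only control Sham 1, at 2450, reached into the TAC range. The log2 fold change was 1.36 (standard error 0.28, limma adjusted p = 0.00160), or 2.57-fold (95% confidence interval 1.73 to 3.83), and it was 1.79 within set 1, where it was no DEG, and 1.15 within set 2. Col5a1, the partner chain on chromosome 2 from 27776437 to 27929526 on the plus strand (ENSMUSG00000026837), was 1288 to 2688 (median 1791) in control Sham and 1981 to 6096 (median 2647) in control TAC hearts. It rose by 0.67 (standard error 0.22, limma adjusted p = 0.0484), a call that was lost without control TAC 5 or control Sham 2 and was not made within either set (log2 fold change 1.17 and 0.41) or with the series in the fit (0.39).

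Col3a1 encodes the single chain of type III, the finer fibrils that run with type I. It was 4912 to 13642 (median 7197) in control Sham and 6045 to 38601 (median 11977) in control TAC hearts, and it was no DEG. The log2 fold change was 0.77 (standard error 0.32, limma adjusted p = 0.141). On the recovered reads it was a DEG in edgeR (log2 fold change 0.98, adjusted p = 0.0600) and DESeq2 (adjusted p = 0.0856). Its value was 1.60 within set 1 and 0.36 within set 2, and it was 0.46 (limma adjusted p = 0.418) without control TAC 5, the highest heart at 38601. The remaining fibrillar members, Col2a1, Col5a3, Col11a1, Col11a2, Col24a1 and Col27a1, did not pass, with log2 fold changes from -0.38 to 1.11. Within set 1 alone, Col11a2 was a DEG and lower (log2 fold change -1.44, limma adjusted p = 0.0520).

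Basement membrane network collagens rose for 4 of 6 members in control hearts following TAC, and none fell. Col4a1 and Col4a2 encode the paired chains found in most basement membranes and are transcribed in opposite directions on chromosome 8 from overlapping starts. Col4a1 lies on chromosome 8 from 11248423 to 11362826 on the minus strand (ENSMUSG00000031502) and was 11913 to 22841 (median 15999.8) in control Sham and 19042 to 35298 (median 23932) in control TAC hearts. The groups overlapped, and the log2 fold change was 0.59 (standard error 0.17, limma adjusted p = 0.0195), which is just past the limit at 1.51-fold (95% confidence interval 1.19 to 1.91). Col4a2, on chromosome 8 from 11362805 to 11499287 on the plus strand (ENSMUSG00000031503), was 9117 to 16889 (median 12738) in control Sham and 14752 to 26681 (median 19126) in control TAC hearts, a log2 fold change of 0.61 (standard error 0.16, limma adjusted p = 0.0141). Both calls were lost without control TAC 5, control Sham 2 or control Sham 3, and that of Col4a1 also without control Sham 6, because the fold then fell below 1.5. Neither was a DEG within a set or with the series in the fit. For Col4a1 the estimate was 0.85 in set 1, 0.46 in set 2 and 0.42 with the series, and for Col4a2 0.92, 0.46 and 0.42. DESeq2 did not call Col4a1. The ratio of Col4a1 to Col4a2 per kilobase stayed between 1.15 and 1.38 in control hearts.

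Col4a3 and Col4a4 encode chains that join Col4a5 in the specialised network known best from the kidney glomerulus, and they share a start region on chromosome 1, again in opposite directions. Both were lower in level than the main chains. Col4a3, on chromosome 1 from 82564642 to 82699780 on the plus strand (ENSMUSG00000079465), was 103 to 239 (median 177) in control Sham and 208 to 525 (median 374) in control TAC hearts. Only control TAC 2, at 208, lay within the Sham range. The log2 fold change was 1.11 (standard error 0.27, limma adjusted p = 0.00761), or 2.16-fold (95% confidence interval 1.46 to 3.18), with 1.75 in set 1 and 0.79 in set 2, where it was no DEG. Col4a4, on chromosome 1 from 82426144 to 82564570 on the minus strand (ENSMUSG00000067158), was 259 to 442 (median 365) and 362 to 817 (median 641), and it rose by 0.78 (standard error 0.23, limma adjusted p = 0.0256). This call was lost in set 1 (1.42), in set 2 (0.45) and with the series (0.45). Col4a5 (log2 fold change 0.29, limma adjusted p = 0.192) and Col4a6 (-0.13, 0.889), a head-to-head pair on chromosome X, did not pass.

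Of the multiplexins, basement membrane-zone collagens with an interrupted helix, Col15a1 rose and Col18a1, the precursor of endostatin, did not pass the fold limit. Col15a1, on chromosome 4 from 47208161 to 47313167 on the plus strand (ENSMUSG00000028339), was 1636 to 3957 (median 3575) in control Sham and 3108 to 9873 (median 5377) in control TAC hearts. Control Sham 2, at 1636, stood well below the other Sham hearts, and the call was lost without it. The log2 fold change was 0.77 (standard error 0.22, limma adjusted p = 0.0204), but 1.63 in set 1, 0.34 in set 2 and 0.49 with the series, and it was no DEG in either of the latter fits. Col18a1 had a value of 0.52 (standard error 0.18, limma adjusted p = 0.0703), and its gene overlaps Slc19a1 on the opposite strand, whose reads cannot be told apart if counting disregarded strand, which the sources do not state. The same holds for the short stretch that Col4a1 shares with Col4a2.

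Beaded filament collagens split. Col6a2, a core chain of type VI on chromosome 10 from 76431596 to 76459464 on the minus strand (ENSMUSG00000020241), was 2289 to 3995 (median 2980.4) in control Sham and 3141 to 8483 (median 4367) in control TAC hearts, with a log2 fold change of 0.62 (standard error 0.19, limma adjusted p = 0.0369) that was lost without control TAC 5 or control Sham 2. It was also lost in set 1 (1.09), in set 2 (0.38) and with the series (0.36). Col6a1, the partner core chain and the highest of the class per kilobase, lies on chromosome 10 from 76544626 to 76562002 on the minus strand (ENSMUSG00000001119) and was 2015 to 3419.7 (median 2675) and 2703 to 7443 (median 3757). Its adjusted p passed and its fold did not, with a log2 fold change of 0.57 (standard error 0.19, limma adjusted p = 0.0493), or 1.49-fold (95% confidence interval 1.14 to 1.94). Col6a3 had 0.27 (limma adjusted p = 0.385).

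Col6a6, one of the long alternative chains that can take the place of the Col6a3 product, was the only DEG that fell following TAC in the fit over all 24 libraries. It lies on chromosome 9 from 105565008 to 105705359 on the minus strand (ENSMUSG00000043719). Its normalized count was 128 to 433 (median 285) in control Sham and 41.3 to 109 (median 51.5) in control TAC hearts, with no overlap. Every control TAC heart was below the lowest Sham heart, control Sham 1. The gene fell by 2.16 on the log2 scale (standard error 0.33, limma adjusted p = 6.86e-05), to 0.224 of its Sham level (95% confidence interval 0.140 to 0.358). The value was -1.80 within set 1 and -2.34 within set 2, and the call held without any single library but was not made in set 1 alone, with 2 hearts against 2.

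Fibril-associated collagens rose for 4 of 9 members in control hearts following TAC. Col14a1, which binds fibres through decorin and regulates their width, lies on chromosome 15 from 55171146 to 55384199 on the plus strand (ENSMUSG00000022371) and was 331 to 897 (median 423) in control Sham and 454 to 2412 (median 1172) in control TAC hearts, a log2 fold change of 1.19 (standard error 0.31, limma adjusted p = 0.0131). It was no DEG in set 1 (1.79) or set 2 (0.89). Col16a1, on chromosome 4 from 129941633 to 129993076 on the plus strand (ENSMUSG00000040690), was 266 to 535 (median 302) and 512 to 1939 (median 774). Apart from control Sham 1 (535) and control TAC 2 (512), its groups were separate. It rose by 1.35 (standard error 0.26, limma adjusted p = 7.13e-04), or 2.55-fold (95% confidence interval 1.77 to 3.67), with 1.78 in set 1 and 1.14 in set 2, and it was a DEG in both.

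Col12a1, a large chain of tissues under tension such as tendon, had one of the largest folds and one of the widest spreads. It lies on chromosome 9 from 79506273 to 79626113 on the minus strand (ENSMUSG00000032332), and its count was 42.4 to 486 (median 113) in control Sham and 161 to 2191 (median 514) in control TAC hearts. Control Sham 1, at 486, was again within the TAC range. The log2 fold change was 2.29 (standard error 0.61, limma adjusted p = 0.0141), or 4.89-fold (95% confidence interval 2.05 to 11.7). Within set 1 (2.11) and set 2 (2.38) it was no DEG. Col9a2, a chain of cartilage type IX on chromosome 4 from 120896582 to 120912519 on the plus strand (ENSMUSG00000028626), stood at 0 to 21.4 (median 6.90) in control Sham, with 1 heart at 0, and 4.53 to 226 (median 55.2) in control TAC hearts. Its log2 fold change of 3.01 (standard error 0.74, limma adjusted p = 0.00762) is on the log2(count + 1) scale and comes from low counts, and the gene was no DEG in set 1 (2.91). The partner chains of type IX, Col9a1 and Col9a3, did not pass.

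Both short-chain collagens rose. Col8a1, a chain of the type VIII lattice known from blood vessels and from Descemet's membrane of the cornea, lies on chromosome 16 from 57444621 to 57575100 on the minus strand (ENSMUSG00000068196). Its level was 617 to 2049 (median 769) in control Sham and 2143 to 9745 (median 4954) in control TAC hearts. All 6 TAC hearts were above all 6 Sham hearts. Its log2 fold change was 2.36 (standard error 0.32, limma adjusted p = 1.76e-05), or 5.13-fold (95% confidence interval 3.26 to 8.08), and it was 2.69 within set 1 and 2.19 within set 2. The call held without any single library and within each set. Col8a2, the partner chain on chromosome 4 from 126180586 to 126208123 on the plus strand (ENSMUSG00000056174), was 9.87 to 247 (median 30.3) and 65.2 to 607 (median 159), with control Sham 1 (247) inside the TAC range. It rose by 2.24 (standard error 0.68, limma adjusted p = 0.0323), and the call was lost without control TAC 5, in set 1 (1.84) and in set 2 (2.44). Per kilobase, Col8a1 was 7.09 to 66.8 times Col8a2 in control Sham and 13.7 to 48.0 times in control TAC hearts.

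None of the 4 transmembrane collagens, of the 2 unclassed members or the anchoring fibril chain Col7a1 was a DEG following TAC in control hearts. Col23a1, the most abundant transmembrane member, lies on chromosome 11 from 51180747 to 51474745 on the plus strand (ENSMUSG00000063564) and was 62.6 to 104 (median 76.1) in control Sham and 47.8 to 85.5 (median 55.6) in control TAC hearts, a log2 fold change of -0.44 (standard error 0.26, limma adjusted p = 0.360). Col7a1, the chain of the anchoring fibrils beneath skin epithelium, on chromosome 9 from 108782654 to 108813943 on the plus strand (ENSMUSG00000025650), was 14.0 to 63.0 (median 30.5) and 25.9 to 66.0 (median 46.6), a log2 fold change of 0.42 (standard error 0.30, limma adjusted p = 0.469). Col28a1, the higher of the unclassed members, on chromosome 6 from 7997808 to 8192617 on the minus strand (ENSMUSG00000068794), was 11.8 to 56.3 (median 32.0) and 29.3 to 83.9 (median 45.9), with 0.63 (standard error 0.31, limma adjusted p = 0.228).

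**Figure D2:**
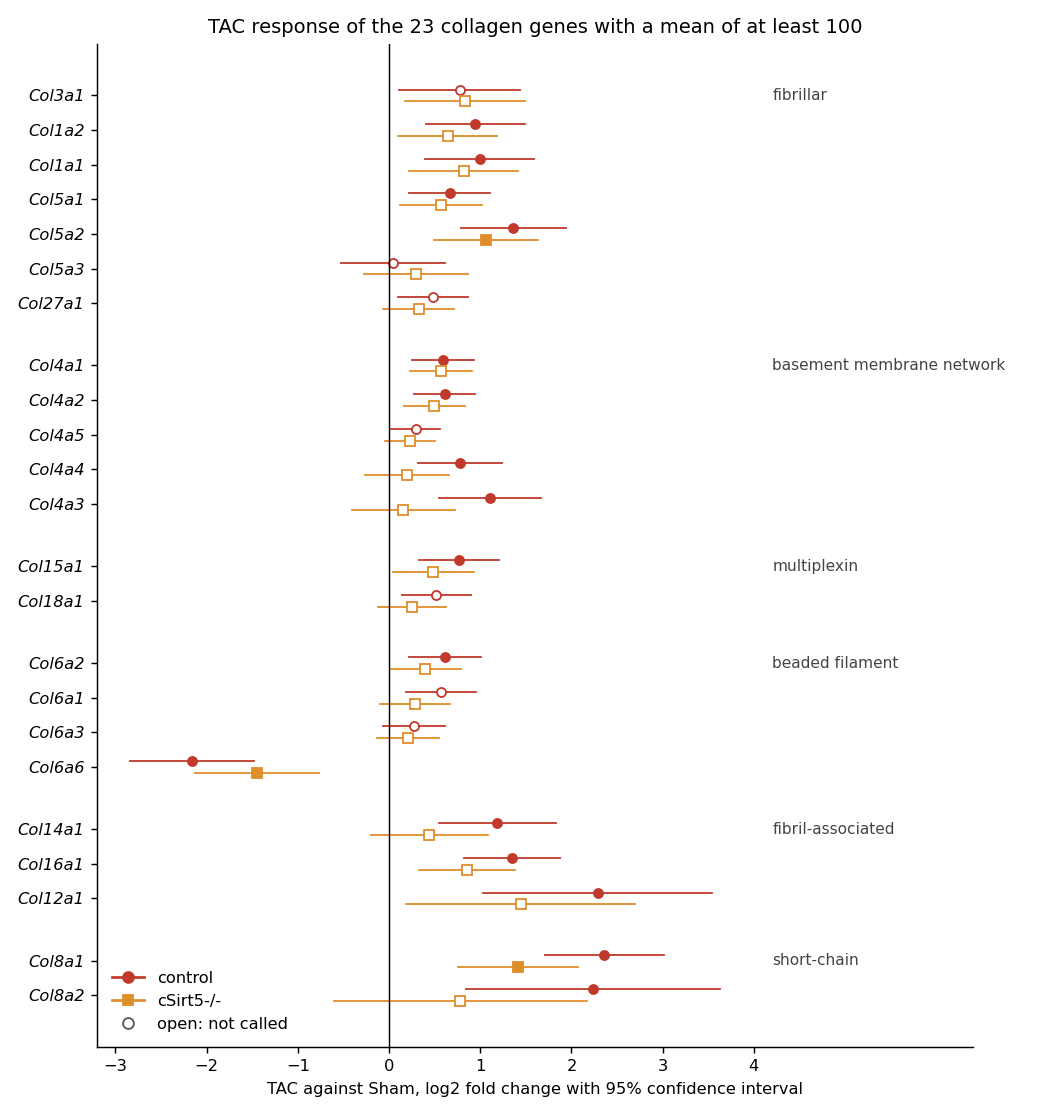
Log2 fold change of TAC against Sham with its 95% confidence interval for the 23 members with a mean of at least 100, by class, in control (circles) and cSirt5-/- hearts (squares). Filled symbols are DEGs. Of these 23, chosen by a mean that includes the TAC hearts, 22 have a positive estimate in control hearts. Col6a6 has a negative one in both genotypes.

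In cSirt5-/- hearts, 3 of 42 members were DEGs following TAC, against 0.672% of all genes, 0.252% higher and 0.421% lower. Col8a1 and Col5a2 rose and Col6a6 fell, and all 3 were DEGs in the same direction in control hearts, a comparison with hearts of its own. Col8a1 was 786 to 1648 (median 1119) in cSirt5-/- Sham and 1790.3 to 5993 (median 2666) in cSirt5-/- TAC hearts, without overlap. Its log2 fold change was 1.41 (standard error 0.32, limma adjusted p = 0.0413), or 2.66-fold (95% confidence interval 1.69 to 4.19), with 2.02 in set 1 and 0.96 in set 2, neither of them past the threshold. Col5a2 was 1056 to 2465 (median 1801) and 2367 to 5313 (median 3142), a log2 fold change of 1.06 (standard error 0.28, limma adjusted p = 0.0788). It was no DEG within either set. Col6a6 was 164 to 649.9 (median 379) in cSirt5-/- Sham and 63.2 to 209 (median 136) in cSirt5-/- TAC hearts and fell by 1.45 on the log2 scale (standard error 0.33, limma adjusted p = 0.0425). Of the TAC hearts, only cSirt5-/- TAC 3, the highest of its group, lay above any Sham heart. Within set 1 (-1.83) and set 2 (-1.33) Col6a6 was no DEG.

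Other members had positive estimates that did not pass in the fit over all 24 libraries without the series. Col1a1 was 3558 to 13189 (median 6764) in cSirt5-/- Sham and 8816 to 16599.6 (median 10343) in cSirt5-/- TAC hearts, a log2 fold change of 0.82 (standard error 0.29, limma adjusted p = 0.231). Col3a1 was 5769 to 23572 (median 14107) and 16658 to 32926 (median 22353), with 0.84 (standard error 0.32, limma adjusted p = 0.290). For Col4a1 the value was 0.57 (standard error 0.17, limma adjusted p = 0.125) and for Col4a3 it was 0.16 (standard error 0.27, limma adjusted p = 0.867). The median over the 42 members was 0.29. The count of DEGs moved widely with the fit. It was 0 within either set (0% and 0.0825% of all genes), 6 in DESeq2 (1.86%), and 16 with the animal-number series in the fit (3.00%). Over all 24 libraries, 163 of all genes were DEGs. The count of members was 0 without cSirt5-/- Sham 4 (33 of all genes) or cSirt5-/- TAC 5 (68 of all genes). It was 1 without cSirt5-/- Sham 2 (77) or cSirt5-/- TAC 1 (73), and 5 without cSirt5-/- Sham 6 (212). Without the libraries labelled cSirt5-/- TAC 2 and 4 it was 3 (0.549%). With the series in the fit, Col1a1 (log2 fold change 1.55), Col3a1 (1.71) and Col4a1 (0.87) were DEGs, and Col4a3 (0.40) was not. In control hearts the same fit gave 0.67, 0.37, 0.42 and 0.89 in the same order.

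**Figure D3:**
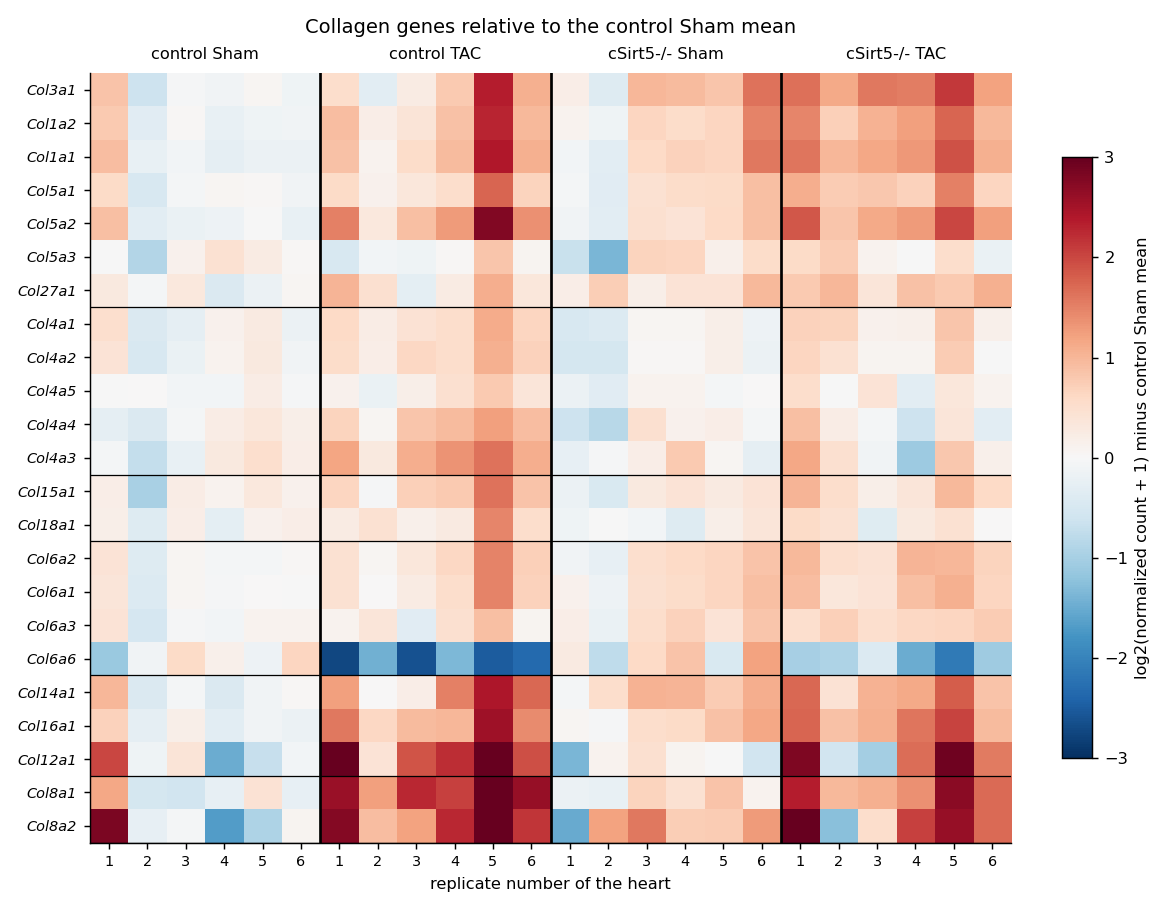
Log2(normalized count + 1) of the 23 members whose mean reached 100, heart by heart, as the difference from the control Sham mean. Columns are hearts by replicate number within a group, rows are genes by class, red is higher and blue lower. Control TAC 5 is the reddest column of its group, and Col6a6 is blue in all 12 TAC hearts.

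The difference between genotypes in the TAC response was tested as an interaction. No member passed (0 of 42, against 0.0908% of all genes), and edgeR (0.103%) and DESeq2 (1.81%) on the recovered reads called 0 as well. At an unadjusted p under 0.05, which 9.81% of all genes met, 3 members had a difference: Col25a1 with 1.92, Col4a3 with -0.95 and Col8a1 with -0.95 on the log2 scale. Without the libraries labelled cSirt5-/- TAC 2 and 4 these estimates were 2.01, -0.68 and -0.68, and with the series as a term 2.47, -0.49 and -0.15. In the fit over all 24 libraries without the series, the 95% confidence intervals of the ratio of the TAC responses ran from 0.273 to 0.986 for Col8a1 and from 0.494 to 1.60 for Col1a1. The 17 and 3 DEGs of the 2 genotypes thus do not show that their collagen responses differ. With the animal-number series in the fit, 1 member, Col5a3, passed (log2 difference 1.44, against 0.0165% of all genes).

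Following Sham, 1 of 42 members was a DEG between genotypes (2.03% of all genes, 1.48% higher and 0.549% lower). This was Col25a1, a transmembrane collagen known from neurons, on chromosome 3 from 129925150 to 130393526 on the plus strand (ENSMUSG00000058897). It was 14.2 to 25.6 (median 16.1) in control Sham and 0 to 12.4 (median 7.85) in cSirt5-/- Sham hearts, with no overlap and 1 cSirt5-/- heart at 0. The gene fell by 1.72 on the log2 scale (standard error 0.51, limma adjusted p = 0.0775). At this level a heart holds few reads of the gene. The call was lost in edgeR, with the library set (-1.54) or the series (-1.88) in the fit, and within set 1 (-1.80) and set 2 (-1.20). It was also lost without any of control Sham 3, 4, 5 or 6 or cSirt5-/- Sham 2, 4, 5 or 6. The main fibrillar chains were no DEGs, with 0.70 (standard error 0.32, limma adjusted p = 0.277) for Col3a1 and 0.52 (standard error 0.29, limma adjusted p = 0.390) for Col1a1, and their direction turned with the fit. With the series as a term, the estimates were -0.23 for Col3a1, -0.30 for Col1a1, -0.15 for Col1a2, -0.21 for Col5a1 and -0.39 for Col5a2. Within set 1 alone they were 0.33 for Col3a1 and -0.13 for Col1a1, and no member was a DEG (0% of all genes). Within set 2 alone, with 4 control and 2 cSirt5-/- hearts, 9 members were higher, among them both type I chains, Col3a1, Col5a1, Col5a2 and the core chains of type VI (6.83% of all genes were DEGs). There the control hearts are all of the low series and the cSirt5-/- hearts all of the high series, so genotype and series cannot be told apart.

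Following TAC, 3 of 42 members were DEGs between genotypes, against 3.25% of all genes, 1.93% higher and 1.32% lower. Col4a3 and Col4a4 were lower and Col6a6 was higher in cSirt5-/- hearts. Col4a3 was 208 to 525 (median 374) in control TAC and 79.1 to 377 (median 211) in cSirt5-/- TAC hearts. It fell by 0.87 on the log2 scale (standard error 0.27, limma adjusted p = 0.0538), with -0.89 in set 1, -0.87 in set 2 and -0.47 with the series in the fit, and it was a DEG in none of these. Col4a4 was 362 to 817 (median 641) and 228 to 655 (median 368), lower by a log2 fold change of -0.70 (standard error 0.23, limma adjusted p = 0.0641). It was -1.06 in set 1, -0.52 in set 2 and -0.18 with the series, again no DEG in any of them. Col6a6 was 41.3 to 109 (median 51.5) and 63.2 to 209 (median 136), with a log2 fold change of 0.99 (standard error 0.33, limma adjusted p = 0.0718). It was 1.42 with the series, where it was a DEG, and 0.82 in set 1 and 1.08 in set 2, where it was not. In all 3 genes the groups overlapped, and the control TAC hearts are the same that entered the TAC comparison above.

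The lowest Col4a3 and Col4a4 values of the cSirt5-/- TAC group, 79.1 and 228, both came from cSirt5-/- TAC 4, 1 of the 2 libraries that held Sirt5. Without these 2 libraries no member was a DEG (1.16% of all genes), and the log2 fold changes were -0.61 (limma adjusted p = 0.271) for Col4a3, -0.56 (0.285) for Col4a4 and 1.01 (0.201) for Col6a6. Over all 24 libraries, 787 of all genes were DEGs in this comparison. The count of members was 0 without cSirt5-/- TAC 3 (661 of all genes) or cSirt5-/- TAC 4 alone (408 of all genes). It was 1 without control TAC 5 (773), control TAC 6 (551) or cSirt5-/- TAC 6 (753), and 5 without cSirt5-/- TAC 5 (989). The main chains did not pass, with 0.76 (standard error 0.32, limma adjusted p = 0.168) for Col3a1, 0.35 (standard error 0.29, limma adjusted p = 0.568) for Col1a1, -0.15 (standard error 0.17, limma adjusted p = 0.681) for Col4a1 and -0.67 (standard error 0.32, limma adjusted p = 0.240) for Col8a1. Col3a1 was higher in cSirt5-/- hearts and a DEG with the series (1.10), in set 2 (1.17), with the replicate number as a block (adjusted p = 0.0859 by limma) and without control TAC 5 (1.08), but was -0.05 in set 1. Hearts with the same replicate number share only that number, so the call with the block adds no support. With the series, 3 members were DEGs, namely Col3a1, Col5a3 (0.94) and Col6a6, all higher (2.36% of all genes).

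**Figure D4:**
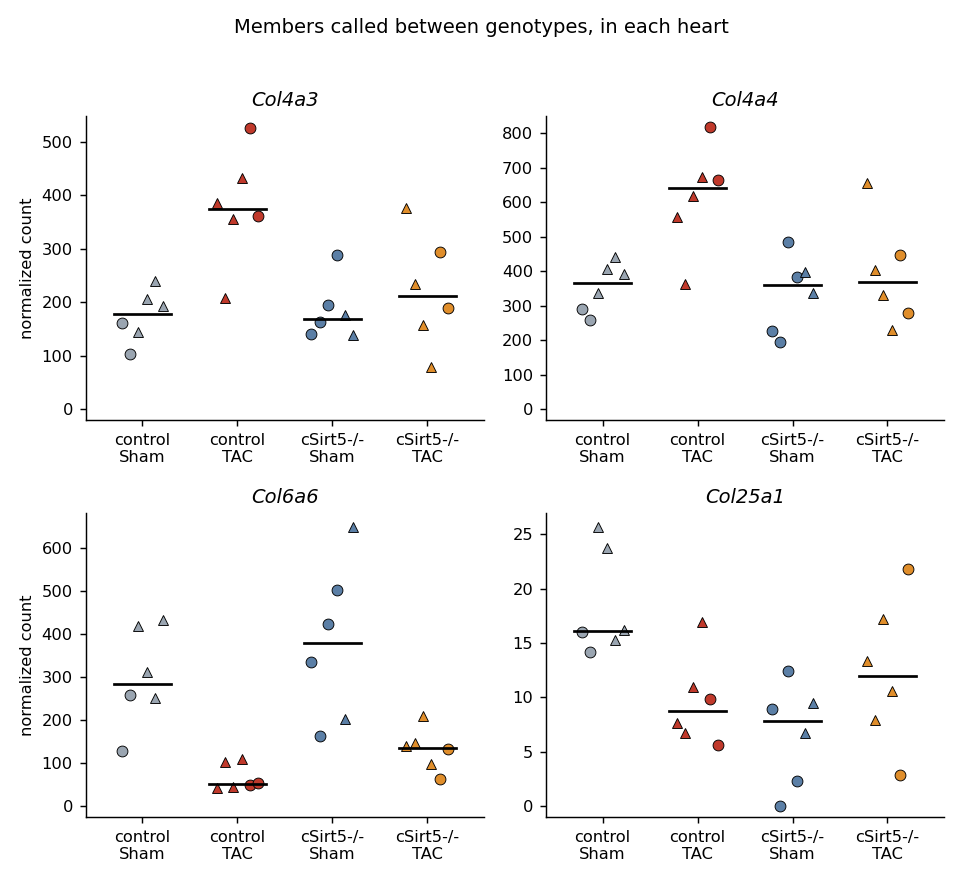
Normalized counts of the 4 members that were DEGs between genotypes, in each of the 24 hearts, on linear axes. Circles are hearts of library set 1, triangles hearts of set 2, and bars the group medians. Col6a6 is 41.3 to 109 (median 51.5) in control TAC and 63.2 to 209 (median 136) in cSirt5-/- TAC hearts, and Col25a1 is 14.2 or more in all control Sham and 12.4 or less in all cSirt5-/- Sham hearts.

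The balance of type III and type I mRNA was compared within each heart, since a ratio inside a library does not depend on the size factor. In control TAC hearts Col3a1 was 1.28 to 1.73 times Col1a1 (median 1.46), and in cSirt5-/- TAC hearts 1.78 to 2.31 times (median 1.94). The 6 cSirt5-/- hearts were all above the 6 control hearts. The log2 ratio of Col1a1 to Col3a1 was lower in cSirt5-/- TAC hearts by 0.42 (two-sided exact permutation test over 924 labelings, p = 0.00216, the smallest this design can give, adjusted p = 0.00866 over 4 comparisons). Without the libraries labelled cSirt5-/- TAC 2 and 4 the difference was -0.42. Within set 1 the difference was -0.20, with Col3a1 at 1.65 to 1.73 times Col1a1 in 2 control TAC hearts and 1.90 to 1.98 times in 2 cSirt5-/- TAC hearts. Within set 2 it was -0.52, with 1.28 to 1.53 in 4 and 1.78 to 2.31 in 4. The groups did not overlap in either set, and the smallest exact permutation p that these numbers allow is 0.333 in set 1 and 0.0286 in set 2, before adjustment. In set 1 the control hearts are of the high and the cSirt5-/- hearts of the middle series, so genotype and series cannot be told apart there.

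Following Sham the ratio was 1.29 to 2.01 in control (median 1.79) and 1.62 to 2.26 in cSirt5-/- hearts (median 2.01), a log2 difference of -0.18 (exact permutation p = 0.149, adjusted p = 0.199), with -0.46 in set 1 and 0.00619 in set 2. Between surgeries it differed by 0.22 in control hearts (exact permutation p = 0.0931, adjusted p = 0.186), with -0.22 in set 1 and 0.44 in set 2, and by -0.01 in cSirt5-/- hearts (exact permutation p = 0.861). Whether the genotypes differed in this change was tested over 853776 exchanges of genotype within each surgery (difference -0.23, exact permutation p = 0.238). The higher type III share of cSirt5-/- TAC hearts is thus not shown to arise with TAC. The exchanges disregard library set and series, and neither is balanced between the groups.

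**Figure D5:**
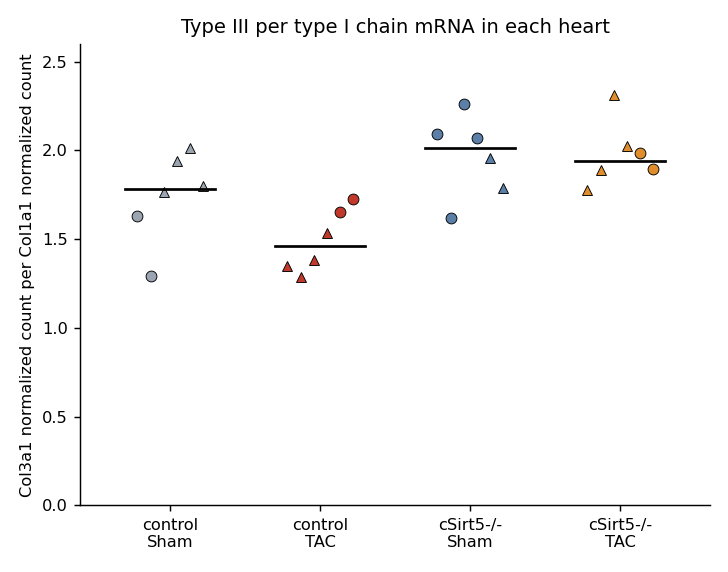
Col3a1 per Col1a1 normalized count in each of the 24 hearts, on a linear axis from 0. Circles are hearts of library set 1, triangles hearts of set 2, and bars the group medians. All cSirt5-/- TAC hearts (1.78 or more) lie above all control TAC hearts (1.73 or less).

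The makeup of collagen mRNA by class is given per kilobase as a mean ± SD of 6 hearts with no test. These shares disregard library set and series, which are uneven between the groups. Fibrillar chains made up 34.5% ± 3.55 of collagen signal in control Sham, 37.2% ± 6.58 in control TAC, 43.1% ± 6.85 in cSirt5-/- Sham and 47.3% ± 3.84 in cSirt5-/- TAC hearts. Basement membrane chains made up 43.1% ± 3.69, 38.5% ± 6.45, 33.4% ± 5.77 and 31.0% ± 4.37 in the same order. The short-chain pair went from 1.83% ± 0.589 in control Sham to 5.35% ± 1.03 in control TAC hearts, and from 1.87% ± 0.415 to 3.25% ± 1.04 in cSirt5-/- hearts.

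Genes that modify, cut, fold or crosslink collagen were taken from a list of 36, all in the table. In control hearts following TAC, 14 of them rose and 1 fell, against 7.03% of all genes that were DEGs in either direction. Those that rose included the crosslinking oxidases Lox (log2 fold change 1.85, adjusted p = 0.00498), Loxl2 (1.05, adjusted p = 0.0100) and Loxl3 (1.66, adjusted p = 0.00363), the prolyl hydroxylases P4ha1 (0.86, adjusted p = 2.04e-04) and P3h2 (1.18, adjusted p = 6.17e-04), and the collagen-binding glycoprotein Sparc (0.80, adjusted p = 0.00675), all by limma. P3h4, part of a lysyl hydroxylation complex, was the gene that fell (-0.86, adjusted p = 2.64e-04). The median over the list was 0.37. In cSirt5-/- hearts, where 0.672% of all genes were DEGs, 1 of the 36 rose, Sparc (0.72, limma adjusted p = 0.0898). The counts of the 2 genotypes do not show that their responses differ. Between genotypes, Pcolce (0.69, limma adjusted p = 0.0717) and Pcolce2 (0.64, limma adjusted p = 0.0193), enhancers of procollagen cleavage, were higher in cSirt5-/- hearts following Sham. None of the 36 was a DEG following TAC. Of all genes, 2.03% were DEGs between genotypes following Sham and 3.25% following TAC.

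Among 11 genes for collagen receptors and uptake, 2 rose in control hearts following TAC, the uptake receptor Mrc2 (1.08, adjusted p = 2.73e-04 by limma) and Itga11 (1.00, adjusted p = 0.00190), the alpha 11 integrin of fibroblasts. Of all genes, 7.03% were DEGs in that comparison. None of the 11 was a DEG in the other comparisons, where 0.0908 to 3.25% of all genes were.

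Markers of several cell types differed between groups as well. Of all genes, 7.03% were DEGs for TAC in control hearts and 0.672% for TAC in cSirt5-/- hearts. Between genotypes, 2.03% of all genes were DEGs following Sham and 3.25% following TAC. Among the activated fibroblast markers, Postn (2.97, adjusted p = 1.18e-04 by limma) and Cilp (2.77, adjusted p = 5.49e-04) rose in control hearts following TAC and only Fap did not pass. In cSirt5-/- hearts 0 of 8 passed, with sums of 2881 to 9759 (median 7216) following Sham and 6734 to 41842 (median 19964) following TAC. In control hearts the median sums were 3432 and 28649. The counts of the 2 genotypes do not show that these markers respond differently. Of 10 fibroblast markers, Pi16, Mfap4 and Mfap5 rose in control hearts and Mfap5 alone rose in cSirt5-/- hearts. In control hearts their sums were 43626 to 52355 following Sham and 48810.2 to 67146 following TAC, and in cSirt5-/- hearts 49899.8 to 81777 and 50303 to 62957.

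Of 10 endothelial markers only Kdr was a DEG, lower in cSirt5-/- hearts following either surgery, and of 9 markers of pericytes and smooth muscle only Acta2, higher in cSirt5-/- hearts following TAC. Of 10 cardiomyocyte markers, Atp2a2 and Tnni3 fell in control hearts following TAC. Among 7 atrial markers, Nppa rose and Stard10 fell in control hearts following TAC, Stard10 fell in cSirt5-/- hearts, and Stard10 was higher in cSirt5-/- hearts following either surgery, with Nppa following Sham. The atrial sums were 2694 to 19469.5 in control Sham and 9229 to 59566 in cSirt5-/- Sham hearts. Of 10 macrophage markers, 5 were higher in cSirt5-/- hearts following Sham and 3 following TAC, and none was a DEG between surgeries. Of 7 cartilage and tendon markers with a value, Sox9 and Scx rose and Cnmd fell in control hearts following TAC, and Cnmd fell in cSirt5-/- hearts. Following Sham, 1 of 6 adipocyte and 3 of 6 mesothelial markers were higher in cSirt5-/- than in control hearts, with mesothelial sums of 83.5 to 153 in control Sham and 149.5 to 339 in cSirt5-/- Sham. The all-gene shares given with the activated fibroblast markers apply to these counts as well. The part of these cell types in the collagen values was not tested.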

How the data were processed

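RNA of 24 mouse hearts was sequenced by the study as paired-end directional libraries, trimmed with Trim Galore and aligned with STAR to GRCm39 (mm39), and the program that counted reads is not given in the sources used here. The authors deposited a table of normalized counts, a signal made of reads per gene divided by DESeq2 size factors, for genes with at least 10 reads in all. The table's columns of the authors' own fold changes and p-values were not used. Whole reads were recovered from the table (100% of values whole within 1e-06).

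Groups came from the labels. The main test was limma 3.58.1 with a mean-variance trend (R 4.3.3) on log2(normalized count + 1), 1 term per group over all 24 libraries, with Benjamini-Hochberg adjustment over 24239 genes. The limits for a DEG were those of the study (0.1 for the adjusted p, 1.5 for the fold). This scale understates the change of low genes. Alternatives were edgeR 4.0.16 and DESeq2 1.42.0 on the recovered reads (edgeR called 1730 genes for TAC in control hearts), other scalings, filters and pseudocounts, library set, animal-number series, a replicate block, and each library left out. Library sets were defined here from 496 pairs of genes of which 1 lies within the other on the opposite strand. The fit was checked on simulated data with known changes. Levels between genes were divided by GENCODE M39 transcript length, and gene coordinates are those of the table. The precision rests on 22.5 to 35.8 M reads a library and 6 hearts a group. Members, lists and tests were chosen with earlier results of these data known. Every member that was a DEG in at least 1 of 5 comparisons and the highest of each class are described, and other members are given by name or range. Col6a4, Col10a1, Col21a1 and Matn1 were not analysed here. Some marker results are not reported here.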

Additional observations from a re-analysis of the deposited data

Results flagged for a closer look

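Among 96 groups of 6 hearts, 4 for each of 23 members (every DEG, the member of each class with the highest mean, Col1a1, Col3a1 and Col6a1) and 4 for the Col1a1 to Col3a1 ratio, 22 held a heart whose gap to its nearest neighbour was large against the group's range by Dixon's criterion. For normally distributed values chance gives about 1 in 20 groups. The counts were taken without a log and their distribution was not tested, so that this rate need not hold for them. The members share hearts, so the cases are not independent. Control TAC 5 stood above its group with Col1a1 at 23352.5, Col1a2 at 25309.7, Col3a1 at 38601.2, Col5a1 at 6096, Col5a2 at 9100.2, Col6a1 at 7443, Col6a2 at 8483, Col8a2 at 607, Col9a2 at 226 and Col16a1 at 1939 normalized counts. Control Sham 1 stood above its group with Col1a1 at 8359, Col1a2 at 9050.2, Col3a1 at 13642.5, Col5a2 at 2450.0, Col8a2 at 247, Col12a1 at 486 and Col14a1 at 897. Control Sham 2 stood below the others with Col15a1 at 1636. Among cSirt5-/- Sham hearts, replicate 6 was high with Col1a1 at 13189, Col1a2 at 14575 and Col7a1 at 56.2, and replicate 4 was high with Col4a3 at 289. Chance and shared causes were not tested.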

How the results depend on the processing

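Counts of DEGs among the 42 members stayed within 1.5 times the value given for TMM scaling, a pseudocount of 4, a filter on a mean of at least 10, scaling to nuclear mRNA and the adjusted p alone, and no tested member that was a DEG changed direction in any setting. For TAC in control hearts the count was 6 in set 1, where Col18a1 and Col11a2, the latter lower, were gained. The count was 7 in set 2, 11 with the series and 12 to 20 with 1 library left out. For TAC in cSirt5-/- hearts it was 0 in either set, 16 with the series, 6 in DESeq2 and 0 to 5 with 1 library left out. For the genotypes following Sham it was 0 with the 2 groups alone, with the library set in the fit, in set 1, with the series and in edgeR, 9 in set 2, and 0 to 1 with 1 library left out. For the genotypes following TAC it was 0 with the 2 groups alone, 0 in set 1, 1 in set 2 (Col3a1, which was no DEG over all hearts), 0 without cSirt5-/- TAC 2 and 4, 3 with the series (Col4a3 and Col4a4 lost, Col3a1 and Col5a3 gained), and 0 to 5 with 1 library left out. For the interaction it was 1 with the series and otherwise 0. With 1 library left out, 1267 to 1956 of all genes were DEGs for TAC in control and 33 to 239 in cSirt5-/- hearts. Between genotypes 200 to 646 of all genes were DEGs following Sham and 408 to 1024 following TAC, and for the interaction 11 to 118. The log2 ratio of Col1a1 to Col3a1 gave -0.22 in set 1 and 0.44 in set 2 for TAC in control hearts, 0.0417 and -0.09 for TAC in cSirt5-/- hearts, -0.46 and 0.00619 for the genotypes following Sham, and -0.20 in set 1 and -0.52 in set 2 for the genotypes following TAC. With 1 library left out it was 0.17 to 0.30, -0.0571 to 0.0387, -0.23 to -0.10 and -0.46 to -0.37 in the order TAC in control, TAC in cSirt5-/-, genotypes following Sham and following TAC. Hearts with the same replicate number share only a number: of 36 pairs, 10 had a correlation over 0.1 (range -0.43 to 0.47). With the replicate block the counts were 18, 4, 1, 5 and 0, the 5 including Col3a1 and Col8a1. Over all genes the block gave 1693, 199, 514, 753 and 93 DEGs, against 1705, 163, 491, 787 and 22 without it. The causes were not tested.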

Other observations

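Among members that were no DEG, Col22a1, Col11a1 and Col5a3 were picked after their values were seen. Col22a1, a collagen of tissue junctions, was 43.8 to 85.4 (median 49.6) in control Sham and 41.6 to 390.1 (median 103) in control TAC hearts, with a log2 fold change of 1.05 (standard error 0.55, limma adjusted p = 0.274) that passed in edgeR (adjusted p = 0.0593) and DESeq2 (adjusted p = 0.0506). Col11a1, a fibrillar chain best known from cartilage, was 1.80 to 34.2 (median 9.66), 4.50 to 91.5 (median 13.6), 10.4 to 57.4 (median 29.0) and 6.90 to 36.8 (median 13.9) in control Sham, control TAC, cSirt5-/- Sham and cSirt5-/- TAC hearts, with no DEG in any comparison. Col5a3, the third chain of type V, was 510.4 to 1290.2 (median 989) in control Sham and 669.7 to 1656 (median 916) in control TAC hearts. Its log2 fold change was 0.04 (standard error 0.28, limma adjusted p = 0.970), against 0.67 for Col5a1 and 1.36 for Col5a2, and the difference between the chains was not tested.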
